A study of Mus musculus with 8 samples.

Results

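Classical monocytes of wild type mice, isolated from bone marrow as Ly6C-positive cells, were profiled by RNA sequencing in 2 libraries, which are 2 of the 8 in the series. The series compared them with classical monocytes of 3 other genotypes in a study of how nonclassical monocytes develop. The wild type animals carried no named allele, transgene or treatment in the labels, and no age, sex or number of animals is given there, nor whether each library had its own mouse. The 2 libraries were chosen by the genotype label alone, and only their columns of the deposited table were read. One group of 2 libraries allows no test, so levels are given for replicate 1 and replicate 2 in that order, and their gap is the only measure of spread.

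Monocytes are blood phagocytes made in the bone marrow from committed progenitors under the growth factor receptor CSF1R and the transcription factors PU.1 (Spi1) and IRF8. Classical monocytes carry high surface Ly6C, leave the marrow through the chemokine receptor CCR2 and enter inflamed tissue. Some of them convert into nonclassical monocytes, which carry little Ly6C, patrol the vessel wall through CX3CR1 and depend on the nuclear receptor NR4A1.

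Over the 13744 genes of the deposited table the libraries held 59063694 and 52464291 reads. Genes and reads outside that table were not available, so all reads and all genes below mean those in it. With the authors' scaled totals, 1 CPM (1 read per 1000000 reads of the scaled total) stood for 58.0 and 51.3 reads. Levels of different genes are compared as RPKM, which is CPM per 1000 bases of merged exons. In both libraries 12350 genes reached 1 CPM, 7711 (56.1%) reached 10 CPM, 1765 (12.8%) reached 100 CPM and 124 reached 1000 CPM. Counts of list genes at 10 or 100 CPM are to be read beside the shares given here. The median gene stood at 4.09 and 4.14 RPKM.

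The reads were unevenly spread over genes. Actb, cytoplasmic actin, alone took 6.68% and 5.07% of all reads, and the 10 genes with the most reads took 12.8% and 11.9%. The 100 highest genes took 30.2% and 29.97%, and 413 and 414 genes were enough to hold 50% of the reads. In either library 4153 genes held 90%. Both libraries ranked the same 10 genes highest by RPKM, and 95 of the 100 highest were shared. Protein-coding genes took 96.9% of reads in either library, pseudogenes 2.09% and 2.08%, other noncoding genes 0.858% and 0.814%, and the mitochondrial genome 0.569% and 0.576%.

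**Figure D1:**
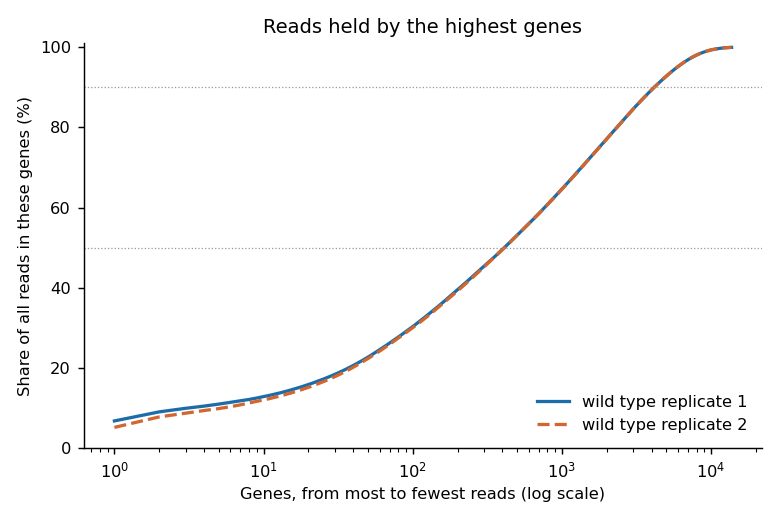
Share of all reads (y axis, percent) held by the highest genes (x axis, number of genes from most to fewest reads, log scale) in wild type replicate 1 (solid) and replicate 2 (dashed), with dotted lines at 50% and 90%. The curves start apart, at 6.68% and 5.07% for the first gene, and run together farther right, crossing 50% at 413 and 414 genes.

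Over the 12797 genes that averaged 1 CPM or more, 61.7% lay within 1.2-fold between the libraries. The log2 difference of replicate 2 minus replicate 1 had an SD of 0.42 and a median of 0.01. Counting error alone, with each read taken as a separate molecule although the cDNA was amplified, would give an SD of 0.11. Separate samples also differ in other ways, which 2 libraries cannot divide up. Across these genes, which are not independent and share both libraries, the Pearson correlation of log2 CPM was 0.984 and the Spearman correlation 0.987. The SD fell with level, from 0.64 at 1 to 4 CPM to 0.32 at 16 to 64 CPM and 0.23 in the next bin but one, and was 0.28 for the 130 genes of the highest bin. Of the 12797 genes, 216 (1.69%) were more than 2-fold higher in replicate 2, 250 (1.95%) were more than 2-fold lower, and 51.4% were higher by any size. These shares are the background for every list below. They are small, so a short list with no gene past 2-fold is near them.

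Surface molecules that define classical monocytes were among the highest genes. All 37 genes of a list of monocyte surface molecules were in the table, 36 reached 10 CPM in both libraries and 31 reached 100 CPM, against 12.8% of all genes. The signalling adaptors Tyrobp (DAP12), at 3282 and 3296 RPKM, and Fcer1g, the common chain of Fc receptors, at 2359 and 2467 RPKM, ranked 9th and 13th of all genes. Ly6c2, which encodes the Ly6C antigen used to name these cells (chr15:75108158-75111970, minus strand, GRCm38), stood at 1368 and 1736 RPKM, rank 31. Surface Ly6C was part of how the cells were chosen. The membrane protein genes Cd52 (997 and 1179 RPKM), Ms4a6c (563 and 523 RPKM) and Cd53 (418 and 428 RPKM) followed. Cd68, at 557 and 559 RPKM, also belongs to the lysosomal genes described below. F13a1, the coagulation factor chain, stood at 413 and 418 RPKM.

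The receptors that carry classical monocytes out of the marrow and keep them alive were lower than the adaptors. Ccr2, the receptor for CCL2, stood at 192 and 159 RPKM, rank 413, and was the highest of 21 chemokine and chemoattractant receptors in the table. Fn1 (fibronectin) stood at 133 and 161 RPKM and Csf1r at 76.5 and 102 RPKM. Itgam (CD11b), at 17.6 and 18.8 RPKM, was the lowest of the 8 markers used to check the label and ranked 2848. All 8 were at or above 10 CPM in both libraries, and their summed level was 33850 and 38858 CPM, of which Lyz2 made up most. Those markers go with the label of classical monocytes.

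Transcripts of nonclassical monocyte genes were present, with a median of 3.95 and 5.16 RPKM against 4.09 and 4.14 for all genes. Of 22 such genes in the table, 12 reached 10 CPM in both libraries, near the 56.1% of all genes. In that list 4 reached 100 CPM, against 12.8% of all genes, and 2 were under 1 CPM in both. The lectin receptor genes Clec4a3 (144 and 167 RPKM) and Clec4a1 (116 and 135 RPKM) led, followed by the ribonuclease gene Ear2 (91.4 and 107 RPKM), Cx3cr1 (34.2 and 50.0 RPKM) and Spn, which encodes CD43 (31.4 and 37.7 RPKM). Treml4, at 8.19 and 10.3 CPM, Adgre4, at 13.6 and 18.0 CPM, and Ace, at 2.31 and 9.84 CPM, lay far below Ly6c2 at 3747 and 4755 CPM. Of the 20 members at a mean of 1 CPM or more, 14 were higher in replicate 2, with a median log2 difference of 0.25. Ace differed most among them, by 2.09 on the log2 scale, and Fcgr4, the Fc receptor of nonclassical monocytes, by 1.13 (3.40 and 7.46 CPM). In bulk RNA, a few cells with much of a transcript and many cells with little of it cannot be told apart.

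Markers of other blood and marrow cells were mostly low. Of 29 markers of cells other than monocytes that were in the table, 19 had a mean under 10 CPM and 2 a mean of 100 CPM or more. For T cells Cd3g stood at 0.172 and 0.273 CPM. The B cell genes Cd79a (9.30 and 9.82 CPM) and Ms4a1 (1.38 and 1.33 CPM) were low, while Cd79b stood at 47.9 and 54.1 CPM and Ighm at 606 and 699 CPM. The globin genes Hba-a1 (8.17 and 8.61 CPM) and Hbb-bs (9.05 and 8.36 CPM) were close to each other. Ly6g, the antigen of mature neutrophils, stood at 1.03 and 1.85 CPM, and Cxcr2 at 7.81 and 7.15 CPM. Other neutrophil genes were higher: Ngp stood at 139 and 159 CPM, Retnlg at 78.3 and 70.8 CPM and Ltf at 58.5 and 70.2 CPM. The 6 neutrophil markers summed to 306 and 340 CPM, and none of them was at 0 reads. The dendritic cell gene Cd209a stood at 36.3 and 45.2 CPM, against 1.40 and 1.07 CPM for Xcr1. The part that other cells have in the levels above was not tested. Markers of megakaryocytes and stroma, Siglech, Kit and Zbtb46 were not analysed here.

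**Figure D2:**
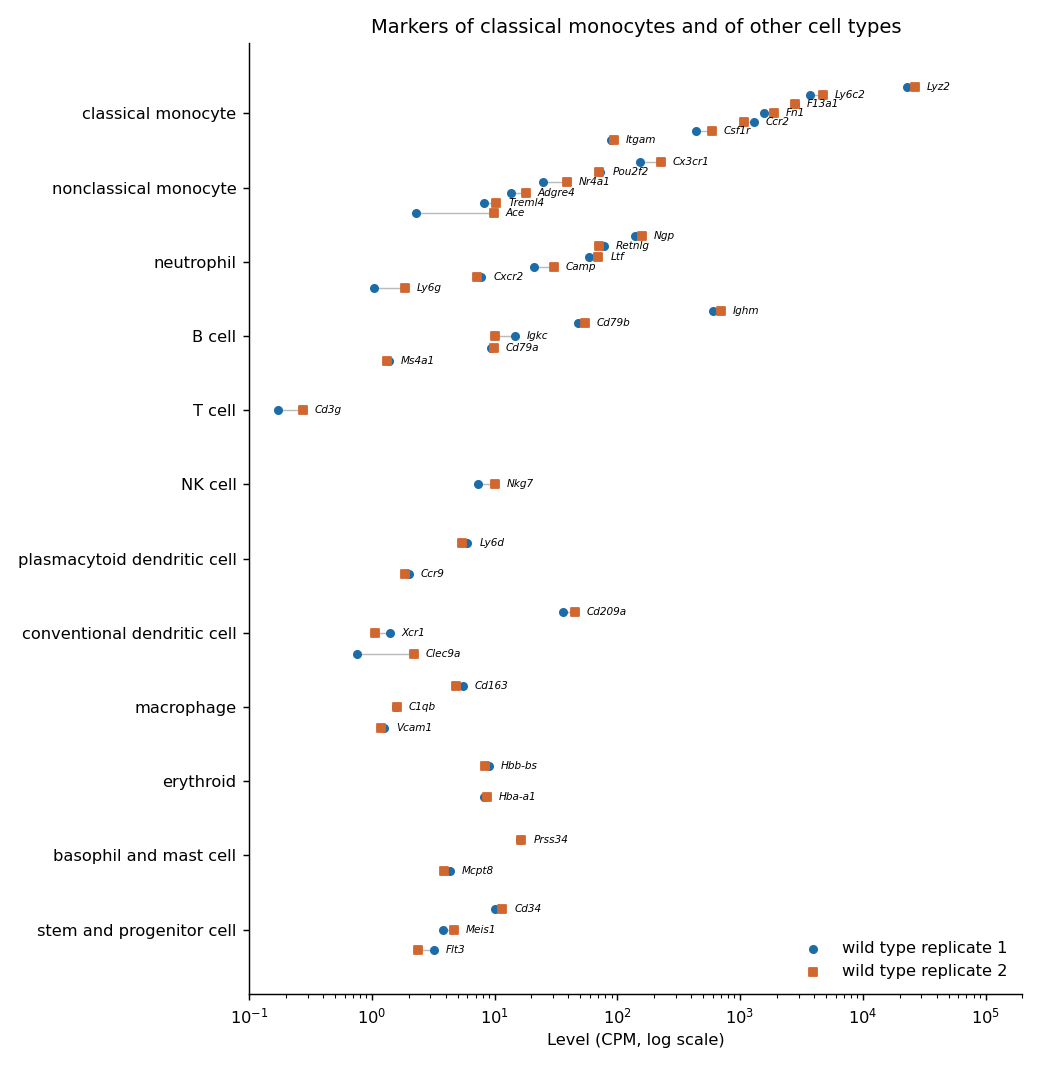
Level of marker genes (x axis, CPM, log scale) by the cell type it marks (y axis), with replicate 1 as circles and replicate 2 as squares joined by a line. Classical monocyte markers lie to the right, from Itgam at 88.5 and 94.4 CPM to Lyz2 at 23089 and 26800 CPM, and most markers of other cells lie under 10 CPM, with Ighm and Ngp above 100 CPM.

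Antimicrobial and granule protein genes made up 4.42% and 4.89% of all reads over 36 genes. Lyz2, lysozyme M (chr10:117277331-117282321, minus strand, GRCm38), had 23089 and 26800 CPM and 17545 and 20365 RPKM. By RPKM it ranked second to Actb in replicate 1 and first in replicate 2. The next by RPKM were Cyba, the membrane subunit of the phagocyte oxidase (1806 and 1822), Lgals3, galectin 3 (1583 and 1724), Hp, haptoglobin (1680 and 1610), and Plac8 (1122 and 1525). The serine protease gene Elane (791 and 952 RPKM) and Chil3 (944 and 1237 RPKM), both also used as neutrophil and precursor genes, were high as well. S100a8 and S100a9, whose products form calprotectin, stood at 1463 and 1021 RPKM and at 568 and 501 RPKM. S100a11 (1714 and 1741 RPKM) lay above both in either library, and S100a6 (950 and 1036 RPKM) overlapped S100a8. The 16 S100 and annexin genes were all at or above 10 CPM in both libraries, 8 were higher in replicate 2, and their median log2 difference was 0.00.

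Actin and motility genes took 12.1% and 10.5% of reads over 45 genes, all at or above 10 CPM in both libraries. Actb (chr5:142903115-142906754, minus strand, GRCm38) had 68088 and 51831 CPM, a mean of 59959 ± 11496 (SD, n = 2), and 25415 and 19347 RPKM. Its log2 difference was -0.39. The actin-sequestering thymosins Tmsb4x (6599 and 6971 RPKM) and Tmsb10 (2281 and 2351 RPKM) came next, then the small GTPase inhibitor Arhgdib (1496 and 1433 RPKM) and the coronin Coro1a (1303 and 1493 RPKM). Of the 45 genes 30 were higher in replicate 2, with a list median of 0.05, and Pfn1, profilin 1, was the 1 member past 2-fold, at 686 and 194 CPM, a log2 difference of -1.82. Other genes among the 30 highest by RPKM were Gpx1, glutathione peroxidase (3895 and 4653), Ubb, a ubiquitin gene (2682 and 2789), Ptma (2160 and 1945), Lgals1 (1808 and 1821), Sh3bgrl3 (1545 and 1644) and Ftl1, ferritin light chain (1495 and 1620).

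Genes of protein synthesis were high and close between the libraries. The 79 cytosolic ribosomal protein genes took 7.21% and 7.50% of reads, with a median of 409 and 433 RPKM. Rpl32 (2448 and 2491 RPKM), Rpl36 (1961 and 2285 RPKM) and Rplp1 (1820 and 2116 RPKM) were the highest, and Rplp0, Rps29 and Rps3a1 were also among the 30 highest genes. Although their products are made in near equal amounts for the ribosome, the listed levels spanned a wide range: Rpl13a stood at 11.3 and 11.9 RPKM, Rpl24 at 2.83 and 2.18 and Rps10 at 0.925 and 0.843. Many ribosomal protein genes have near-identical processed pseudogenes, so the level of a single member is uncertain where reads could be split or dropped. The part of such copies was not tested. Of the 79 genes 67 were higher in replicate 2, with a median of 0.11, and Rpl13 alone differed more than 2-fold (2001 and 559 CPM, -1.84). The elongation factors Eef1a1 (1453 and 1416 RPKM) and Eef2 (418 and 541 RPKM) and the initiation factor Eif1 (488 and 477 RPKM) led the 39 genes of the translation list. Eif4ebp1, which restrains cap-dependent initiation, was the only one of them past 2-fold (186 and 91.6 CPM, -1.02).

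Transcription factors of monocyte development were lower than the effector genes. Of 75 in the table, 57 reached 10 CPM in both libraries, 19 reached 100 CPM, and their median was 6.91 and 7.86 RPKM, against 4.09 and 4.14 for all genes. The highest were Fos (246 and 234 RPKM), Klf13 (197 and 190), Id2, an inhibitor of helix-loop-helix factors (199 and 162), Irf5 (140 and 166) and Klf6 (78.9 and 86.4). Klf13 and Id2 overlapped over the libraries, while Fos stood above both and Klf6 below all of them. Fos, Klf6 and Klf4 also belong to the immediate early genes described below. Klf4, which is needed for classical monocytes, stood at 70.3 and 71.0 RPKM. Irf8 stood at 59.9 and 37.0 RPKM and Spi1 at 24.4 and 25.2. Cebpb, which nonclassical monocytes need, had 15.3 and 12.4 RPKM and Cebpa 7.71 and 11.3.

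The genes named in the study's title were all expressed in wild type cells, at very different levels. Notch2 (chr3:98013527-98150361, plus strand, GRCm38), a receptor that responds to Delta-like ligands, stood at 58.4 and 48.5 RPKM (630 and 523 CPM). Irf2 (chr8:46739732-46847458, plus strand), a factor of the interferon regulatory family, stood at 19.6 and 19.1 RPKM (145 and 141 CPM). Bcl6 (chr16:23965052-23988852, minus strand), a transcriptional repressor, stood at 3.78 and 3.72 RPKM (25.3 and 24.9 CPM). Nr4a1 (chr15:101254269-101274795, plus strand), which has its own knockout in the series, had 7.09 and 11.1 RPKM (24.9 and 39.0 CPM). The order Notch2, Irf2, Nr4a1, Bcl6 by RPKM was the same in both libraries, with no overlap between neighbours. The place of Nr4a1 above Bcl6 depends on dividing by exon length. By CPM, Nr4a1 and Bcl6 stood at 24.9 and 25.3 in replicate 1 and at 39.0 and 24.9 in replicate 2. Nr4a1 was the member whose libraries lay farthest apart, by 0.65 on the log2 scale against -0.27 for Notch2, -0.04 for Irf2 and -0.02 for Bcl6.

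The partners of NOTCH2 and BCL6 were also measured. Of 17 measured Notch pathway genes 13 reached 10 CPM in both libraries. The subunits of gamma-secretase, which releases the active Notch fragment, led with Psenen (117 and 120 RPKM) and Ncstn (53.8 and 57.5), and the Notch-cleaving protease gene Adam10 had 23.1 and 22.1. Notch1 stood at 3.83 and 4.46 RPKM and Rbpj, the DNA-binding partner of the Notch fragment, at 4.03 and 3.61, both more than 10-fold under Notch2. All 15 corepressor genes of BCL6 in the list were in the table, led by the deacetylase Hdac1 (56.9 and 54.0 RPKM), Mta3 (15.4 and 17.3), Hdac3 (17.1 and 14.2), Sin3a (9.96 and 10.7) and Ncor1 (10.3 and 10.1). No Notch or corepressor gene at a mean of 1 CPM or more differed more than 2-fold between the libraries, which is near the share over all genes.

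**Figure D3:**
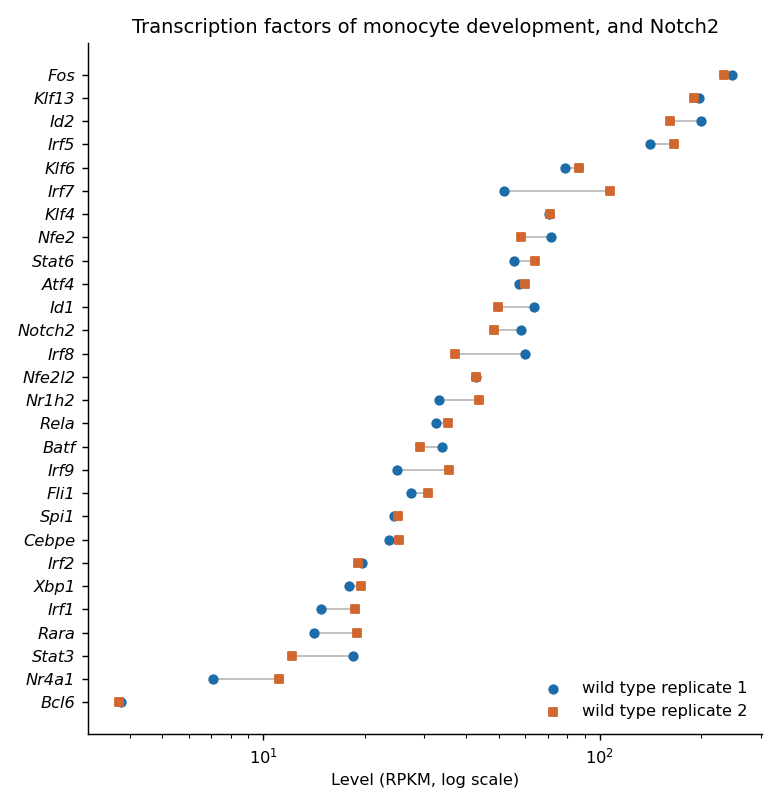
Level (x axis, RPKM, log scale) of the 25 highest transcription factors of monocyte development together with Notch2, Nr4a1 and Bcl6, with replicate 1 as circles and replicate 2 as squares. Fos is at the top at 246 and 234 RPKM and Bcl6 at the bottom at 3.78 and 3.72, and Irf7 and Irf8 have the widest gaps.

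Receptors for danger signals and growth factors were present with few cytokine transcripts. Of 39 measured pattern recognition genes 30 reached 10 CPM in both libraries. Unc93b1, which carries endosomal Toll-like receptors, led with 287 and 381 RPKM, followed by Clec7a, the beta-glucan receptor dectin-1 (62.9 and 79.9), the adaptor Myd88 (53.6 and 49.7), Sting1 (48.9 and 51.6) and Clec5a (41.0 and 32.2). Ifngr1 (201 and 199 RPKM) was the highest of 35 cytokine receptor and kinase genes, ahead of Tnfrsf1a (82.4 and 99.9), Csf1r and the shared beta chain gene Csf2rb (62.5 and 54.7). Among 17 cytokine genes in the table only Grn, progranulin (260 and 325 RPKM), was at or above 100 CPM in both libraries. Mif followed at 125 and 134 RPKM. Tnf stood at 4.95 and 3.55 CPM, Il1b at 2.31 and 1.64 CPM, and Il6 at 0 reads in both libraries, which allows at most 3 reads each by counting error only. The chemokine Ccl6 stood at 411 and 455 RPKM, above Ccl9 (84.8 and 107), Ccl2 (53.8 and 64.5) and Ccl3 (51.6 and 52.6). The 26 inflammasome and cell death genes spanned a wide range, from the pore-forming Gsdmd at 60.4 and 64.3 RPKM, Casp1 at 53.9 and 58.7 and the adaptor Pycard at 49.9 and 53.4 to the sensor Nlrp3 at 5.24 and 5.89 and Nlrp1b at 0.867 and 0.637. None of the 26 differed more than 2-fold between the libraries, which is near the share over all genes.

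Lysosomal and glycolytic genes were among the higher groups, with medians of 52.3 and 51.4 RPKM and of 32.2 and 44.1 RPKM. The 40 lysosomal genes took 2.22% and 2.51% of reads, led by the protease inhibitor Cst3 (1752 and 2096 RPKM), Psap, the precursor of saposins (1182 and 1776), the proteases Ctss (1065 and 1289) and Ctsz (734 and 740), and Laptm5 (606 and 692). The 31 glycolytic and pentose phosphate genes took 1.36% and 1.41% of reads, led by Taldo1 (613 and 662 RPKM), Aldoa (622 and 632), Pkm (509 and 508), Gapdh (355 and 392) and Eno1 (364 and 377). Of the lysosomal genes 29 of 40 were higher in replicate 2, with a median of 0.05, and of the glycolytic genes 22 of 31, with a median of 0.11, against 51.4% of all genes. No gene of either list differed more than 2-fold between the libraries, and Psap differed by 0.59 on the log2 scale. Of the mitochondrial genome, mt-Cytb (1268 and 1262 RPKM), mt-Co1 (1234 and 1295) and mt-Nd1 (1011 and 949) were highest. The 104 nuclear genes of the respiratory chain took 2.28% and 2.31% of reads, with a median difference of 0.01. Fth1, ferritin heavy chain, differed from its partner Ftl1 in that it had 2228 and 983 CPM (-1.18).

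Adhesion, stress and survival genes filled in the picture. Of 23 integrin and adhesion genes 21 reached 10 CPM in both libraries, led by Itgb2, the shared chain of leukocyte integrins (298 and 359 RPKM), Selplg, the ligand of selectins (217 and 273), and Fermt3, an integrin activator (113 and 125). In that list 19 of 23 were higher in replicate 2, with a median of 0.21, and none passed 2-fold. The chaperones Ppia (649 and 656 RPKM), Hspa8 (565 and 507) and Hsp90ab1 (475 and 459) were high, whereas the stress-induced Hspa1a stood at 2.57 and 0.663 CPM. Among immediate early genes, whose transcripts rise within minutes of a stimulus, Nfkbia stood at 269 and 401 RPKM and Fos at 246 and 234. Zfp36 followed at 144 and 159 RPKM and Btg2 at 90.7 and 103, while Egr1 stood at 0.621 and 1.95 CPM. Of the Bcl2 family Bax led with 86.2 and 84.3 RPKM, and the survival gene Mcl1 had 45.6 and 47.3. Alox5ap, which feeds leukotriene synthesis, was the highest of the lipid genes at 563 and 549 RPKM. The citric acid cycle genes Sdhd (248 and 243 RPKM) and Sdhb (238 and 236) led their list, in which none of 23 passed 2-fold. Malat1, a nuclear long noncoding RNA, stood at 123 and 96.8 RPKM.

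Cell cycle transcripts were abundant. All 39 genes of a G2 and M phase list were at or above 10 CPM in both libraries, and 32 were at or above 100 CPM. The histone variant gene H2az1 (1999 and 1951 RPKM), Hmgb2 (659 and 610), Stmn1 (322 and 267) and the CDK subunits Cks1b (263 and 251) and Cks2 (254 and 246) led, although H2az1, Hmgb2 and Stmn1 are also used outside mitosis. Genes that are closely tied to division were high as well. The proliferation marker Mki67 stood at 389 and 336 CPM, Top2a, the topoisomerase that untangles sister chromatids, at 691 and 596 CPM, Cdk1 at 208 and 199 CPM and Ccnb2, a mitotic cyclin, at 372 and 238 CPM. Of 44 DNA replication genes 42 reached 10 CPM, led by Rrm2 (258 and 210 RPKM), Pcna (114 and 102), Mcm5 (90.3 and 92.6), Tipin (81.0 and 73.6) and Mcm3 (76.8 and 68.7). The inhibitor gene Cdkn2d (179 and 142 RPKM) and Cdk4 (72.9 and 77.04) were the highest of the other cyclin and CDK genes. In replicate 2, 30 of the 39 G2 and M phase genes and 31 of the 44 replication genes were lower, with medians of -0.11 and -0.10. Whether all monocytes or a fraction of the isolated cells carried these transcripts was not tested.

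Promoters of the G2 and M phase genes often held CCAAT boxes, the site of the factor NF-Y. CCAAT on either strand was found in the 250 bases before the start site of 29 of the 32 list genes with a RefSeq promoter (90.6%), against 41.2% of the 8742 genes at 1 CPM or more that had one and 33.8% of all 32851 promoters. A gene counted if any of its start sites held the motif. The windows of Ccnb2 (chr9:70421555-70421804, minus strand) and Top2a (chr11:99024190-99024439, minus strand) show repeated boxes, 3 and 6 in number. They are printed from RefSeq (GRCm38.p6), 5' to 3' on the gene's strand and ending at the base before the start site, with CCAAT or its reverse complement ATTGG in capitals. A match is a description of letters and not a bound site.
Ccnb2: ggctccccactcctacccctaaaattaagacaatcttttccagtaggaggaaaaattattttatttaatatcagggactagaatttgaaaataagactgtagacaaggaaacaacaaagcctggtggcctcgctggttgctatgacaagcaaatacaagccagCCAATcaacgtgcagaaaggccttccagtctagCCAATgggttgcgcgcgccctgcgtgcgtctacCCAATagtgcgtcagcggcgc
Top2a: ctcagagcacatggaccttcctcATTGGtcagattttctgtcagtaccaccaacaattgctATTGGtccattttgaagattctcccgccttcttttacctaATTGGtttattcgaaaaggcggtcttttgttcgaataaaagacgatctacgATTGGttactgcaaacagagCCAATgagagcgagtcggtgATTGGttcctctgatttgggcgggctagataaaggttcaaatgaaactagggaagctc

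Interferon-stimulated genes had the largest median gap between the libraries of the 46 lists. In resting cells low interferon signalling through the receptor, STAT2 and IRF9 keeps such genes at a basal level, and IRF2 is known to act on the same promoter elements. Of 65 type I interferon-stimulated genes in the table, 49 reached 10 CPM in both libraries and 17 reached 100 CPM. The membrane antiviral gene Ifitm3 (3711 and 5094 RPKM) ranked 7th of all genes, followed by Ifi27l2a (944 and 1908), Ly6e (820 and 948), Slfn2 (697 and 765) and Ifitm2 (710 and 698). Of the 64 that averaged 1 CPM or more, 62 were higher in replicate 2, against 51.4% of all genes. In that list 21 were more than 2-fold higher (1.69% of all genes were), none was more than 2-fold lower, and the median was 0.83, a fold of 1.77, against 0.01 for all genes.

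The separate genes showed the range of this gap. Ifit3, an RNA sensor partner, stood at 14.3 and 54.1 CPM (1.91 on the log2 scale, counting SD 0.06). Ifit1 stood at 8.23 and 27.0 CPM, Oasl1 at 6.42 and 23.3 CPM, Rtp4 at 40.5 and 117 CPM and the ubiquitin-like modifier gene Isg15 at 24.3 and 63.1 CPM. Of the regulators of the pathway, Irf7 stood at 196 and 404 CPM (1.05), Stat2 at 71.6 and 123 CPM (0.78) and Irf9 at 134 and 192 CPM (0.52). Ifitm2, at 465 and 457 CPM, and Ifitm1, at 8.59 and 7.33 CPM, were the 2 members that were not higher in replicate 2. Of the 17 guanylate-binding and immunity-related GTPase genes, which attack vacuoles of pathogens, 12 averaged 1 CPM or more. All 12, of which Ifi47 is in both lists, were higher in replicate 2, with a median of 0.71, from Ifi47 at 74.3 and 133 CPM and Irgm1 at 83.6 and 144 CPM to Tgtp2 at 4.59 and 14.7 CPM. Which of the libraries is the usual state of wild type monocytes cannot be told from 2 libraries.

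**Figure D4:**
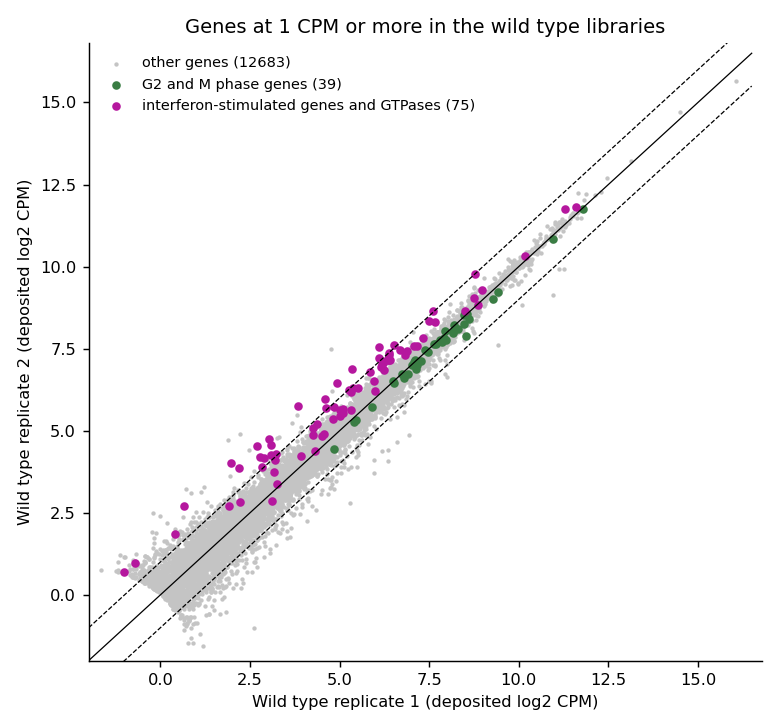
Deposited log2 CPM of replicate 1 (x axis) and replicate 2 (y axis) for the 12797 genes at a mean of 1 CPM or more, with the line of equal level and dashed lines at 2-fold. Interferon-stimulated and GTPase genes lie above the line of equal level, apart from Ifitm1 and Ifitm2, with 21 interferon-stimulated genes past the upper dashed line, while the 39 G2 and M phase genes follow it.

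At higher levels, genes past 2-fold in replicate 2 were often interferon genes. Among the 7962 genes that averaged 10 CPM or more, 36 were more than 2-fold higher in replicate 2 and 60 were more than 2-fold lower. The interferon-stimulated and GTPase lists held 66 of the 7962 genes, 19 of the 36 (52.8%) and 0 of the 60. With so few list genes at this level, 0 of 60 is near the share over all genes. The 12 largest were Gm10801, Gm10800, Gm21738, Ifit3b, H2-Aa, Ifit3, Oasl1, Ifit1, Ifi213, Sdc3, Ifi206 and Rtp4. The first 3 of these, predicted genes with exons of at most 681 bases, had the widest gaps, as Gm10800 with 27.0 and 181 CPM (2.74).

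Promoters of these genes often held the core of the interferon-stimulated response element, searched as a pair of GAAA half-sites with 2 bases between them (GAAANNGAAA) on both strands. It was found in the same 250-base window of 23 of 51 interferon-stimulated genes with a RefSeq promoter (45.1%) and 10 of 11 GTPase genes (90.9%), against 3.55% of genes at 1 CPM or more and 2.98% of all promoters. Of the 25 genes with a promoter that were more than 2-fold higher in replicate 2 at 10 CPM or more, 11 held it (44%). That set comes from the 36 genes of which 19 were in the interferon lists, so its share is not separate from theirs. Of the 51 with a promoter that were more than 2-fold lower, 0 held it, which is near the 3.55%. The windows of Ifit3 (chr19:34583279-34583528, plus strand), Ifit1 (chr19:34640639-34640888, plus strand) and Isg15 (chr4:156200819-156201068, minus strand) are shown since these genes lay far apart in the libraries, Rsad2 (chr12:26456453-26456702, minus strand) for a single match, and Gbp2 (chr3:142620413-142620662, plus strand) and Irgm1 (chr11:48871421-48871670, minus strand) for the GTPases. Source and orientation are as above, and capitals mark the matched bases, where overlapping matches run together.
Ifit3: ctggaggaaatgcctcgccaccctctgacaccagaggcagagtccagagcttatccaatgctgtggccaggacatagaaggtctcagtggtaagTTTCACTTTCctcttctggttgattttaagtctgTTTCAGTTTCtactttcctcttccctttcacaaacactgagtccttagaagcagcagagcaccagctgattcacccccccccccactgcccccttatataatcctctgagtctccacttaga
Ifit1: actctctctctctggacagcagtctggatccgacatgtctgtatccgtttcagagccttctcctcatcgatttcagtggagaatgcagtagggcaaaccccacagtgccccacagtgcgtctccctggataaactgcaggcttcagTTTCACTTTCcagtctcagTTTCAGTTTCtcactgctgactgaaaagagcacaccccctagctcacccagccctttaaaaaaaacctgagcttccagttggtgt
Isg15: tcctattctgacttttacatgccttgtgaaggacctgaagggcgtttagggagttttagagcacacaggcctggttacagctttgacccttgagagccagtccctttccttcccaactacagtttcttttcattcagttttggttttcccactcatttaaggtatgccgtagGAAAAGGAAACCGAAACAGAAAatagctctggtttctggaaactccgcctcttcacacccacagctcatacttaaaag
Rsad2: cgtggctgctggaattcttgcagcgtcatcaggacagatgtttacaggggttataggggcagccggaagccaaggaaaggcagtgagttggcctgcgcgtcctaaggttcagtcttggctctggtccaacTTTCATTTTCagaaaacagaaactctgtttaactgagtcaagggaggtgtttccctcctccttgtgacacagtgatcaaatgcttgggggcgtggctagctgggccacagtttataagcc
Gbp2: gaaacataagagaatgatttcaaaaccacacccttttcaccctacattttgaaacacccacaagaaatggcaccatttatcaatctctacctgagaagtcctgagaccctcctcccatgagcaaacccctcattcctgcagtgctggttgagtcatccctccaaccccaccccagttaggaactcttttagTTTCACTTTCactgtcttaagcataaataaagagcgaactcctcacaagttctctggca
Irgm1: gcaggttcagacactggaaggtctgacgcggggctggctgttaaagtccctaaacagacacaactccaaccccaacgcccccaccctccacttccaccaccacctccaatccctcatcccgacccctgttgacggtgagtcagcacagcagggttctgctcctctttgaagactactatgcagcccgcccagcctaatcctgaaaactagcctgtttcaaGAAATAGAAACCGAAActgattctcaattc

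Antigen presentation genes followed in part. B2m, the light chain of MHC class I, stood at 2282 and 2695 RPKM, rank 11. Of 23 class I genes 19 were higher in replicate 2, with a median of 0.41, and H2-K1 stood at 526 and 803 CPM, while H2-D1 went the other way with 2442 and 973 CPM (-1.33). The H2 genes are near-identical in long stretches, so single levels among them are uncertain. Class II genes proper were low: H2-Ab1 stood at 9.86 and 28.1 CPM, H2-Aa at 5.54 and 21.5 CPM and H2-Eb1 at 1.79 and 8.67 CPM, and these 3 were the members past 2-fold. Cd74, the invariant chain, stood at 133 and 257 CPM, Ifi30 at 303 and 303 CPM and H2-DMa at 437 and 492 CPM. Of 14 conventional dendritic cell genes 9 were higher in replicate 2, 3 of them more than 2-fold, and 5 were lower, 1 of them more than 2-fold. Clec9a stood at 0.759 and 2.20 CPM and Cd209a at 36.3 and 45.2 CPM, while Xcr1 went the other way with 1.40 and 1.07 CPM. The macrophage gene Siglec1, which is also interferon-inducible, stood at 1.12 and 4.60 CPM. The part of dendritic cells in the class II gap was not tested.

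Of the 60 genes at 10 CPM or more that were more than 2-fold lower in replicate 2, 6 (10%) were in any of the 46 lists, near the 9.92% of all genes at this level, and of the 36 more than 2-fold higher 22 (61.1%) were. Families taken by symbol, such as ribosomal proteins and proteasome subunits, are not among the 46 lists. The 12 lower genes with the largest differences were Exosc3, Ltb4r1, Mrps15, Lsm4, Gm15710, Psmd5, Tpgs1, Rpl13, C130089K02Rik, Pfn1, Fam50a and Stub1. Exosc3, a subunit of the RNA exosome, stood at 39.0 and 6.995 CPM (-2.48) and Ltb4r1, the leukotriene B4 receptor, at 81.6 and 16.7 CPM (-2.29). Lsm4, of the spliceosome, stood at 122 and 29.4 CPM (-2.05) and Psmd5, a proteasome chaperone, at 81.6 and 21.3 CPM (-1.94). Of 49 proteasome genes Psmd5 was the 1 past 2-fold, 27 were lower in replicate 2 and the median was -0.01. Of 76 mitochondrial ribosomal protein genes Mrps15 was the 1 past 2-fold, 50 were lower in replicate 2 and the median was -0.06. Median GC content was 51.7% in the 60 lower genes and 51.0% in the 36 higher ones, against 49.2% of all genes at this level, and the median longest transcript had 1974 and 2329 bases, against 3241. The part of base composition and length was not tested.

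**Figure D5:**
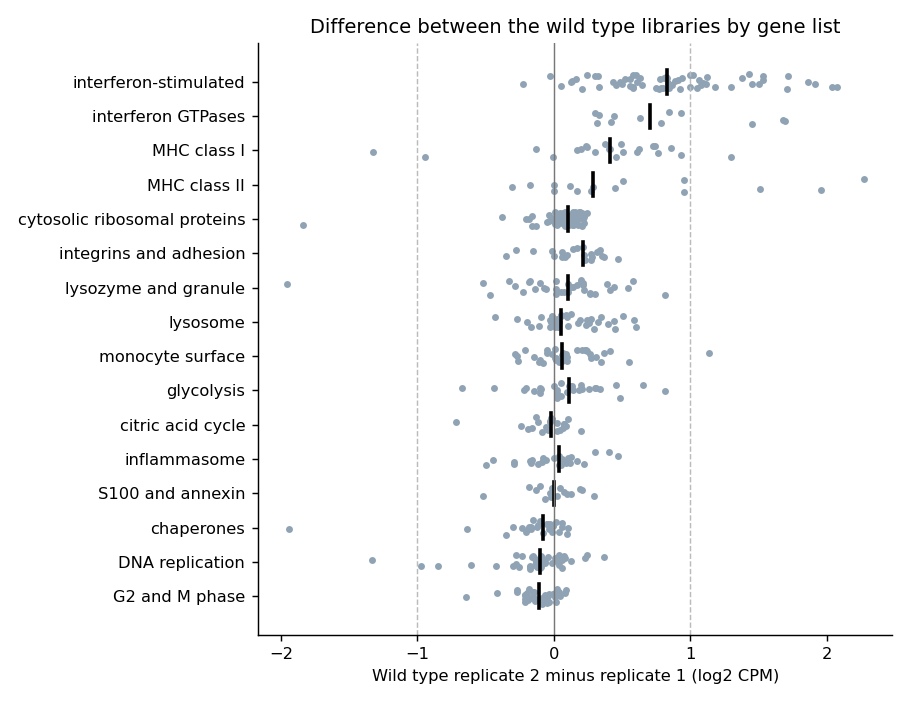
Difference of replicate 2 minus replicate 1 (x axis, log2 CPM) for each gene at a mean of 1 CPM or more in 16 lists (y axis), with points for genes, black bars for list medians and dashed lines at 2-fold. The interferon-stimulated list has a median of 0.83 and the GTPases 0.71, the G2 and M phase list sits at -0.11, and single genes such as Rpl13 at -1.84 lie far from their list.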

How the data were processed

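Per the labels' protocols, 10 ng of total RNA per sample went into SMARTer Ultra Low cDNA, which was sheared, given adapters, amplified (12 to 15 cycles) and read from both ends over 150 bases. Build mm10 and the tools STAR, featureCounts, Salmon and limma are listed, in no order, per the submitters' processing notes. The authors deposited log2 CPM values per library, whose formula was worked out from the values: with the lowest value of a library as 0 reads, log2 of (reads + 0.5) over (scaled total + 1) times 1000000 gave whole reads for 100% of genes, within 0.01 of a read. The table had 13789 rows for 13744 genes. The 45 repeated rows and the 6 columns of other genotypes were not used.

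From these reads CPM was computed with the authors' scaled totals, and RPKM with merged exons of GENCODE M21 (GRCm38) for 13736 genes. No test between libraries or lists was run. Genes were described in 46 lists, of whose 1180 genes 989 were in the table. The members and lists were chosen with earlier results of these data known. The genes named are the 30 highest by RPKM and 20 by reads, the 5 highest of each list with Bcl6, Irf2, Nr4a1 and Notch2, defining cell type markers, the 12 largest differences each way at 10 CPM or more, and up to 4 list members past 2-fold. Others were chosen after their values were seen. Some genes that this rule names are not reported here, but stay in the counts and sums. The calculation of the counting error was checked on simulated data. Alternatives were other gene lengths, plain totals, each library alone, other filters, offsets and scalings. Promoters came from RefSeq (GRCm38.p6) for 9110 of the genes. Python 3.11.15, pandas and matplotlib were used.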

Additional observations from a re-analysis of the deposited data

How the results depend on the processing

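No paired analysis was possible because the results come from 1 group and no test. With plain totals of reads the genes at 1 CPM or more came to 12756 in place of 12797, and single-library values ran from 12720 to 12767. Single libraries gave 1883 to 1884 genes at 100 CPM, 27 to 29 of the 30 highest genes by RPKM, 29.97% to 30.2% of reads in the 100 highest genes and 19 other-cell markers under 10 CPM. Lengths of the longest transcript kept 25 of the 30, and raised 54 of 237 genes named by level more than 1.5-fold. Leaving out genes under 150 exon bases, chosen after seeing the data, kept 27. Per kb of exon, the 100 highest genes held 41.5% in place of 30.1%, cytosolic ribosomal proteins 9.99% in place of 7.35%, the actin list 9.60% in place of 11.3%, the lysozyme and granule list 7.10% in place of 4.66% and the interferon-stimulated list 2.17% in place of 1.40%. Without a filter, genes more than 2-fold lower in replicate 2 came to 376 in place of 250, and at 10 CPM or more they were 60, with 36 in place of 216 higher. The median of the interferon-stimulated genes ran from 0.81 to 0.83 over 5 other settings. In each setting 62 of them were higher in replicate 2, except at 10 CPM or more. That filter left fewer list genes, of which 58 were higher. No difference between the libraries could be had from 1 library.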

Other observations

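Ighm, the heavy chain of immunoglobulin M, stood at 606 and 699 CPM, rank 209 by RPKM, beside Igkc at 14.6 and 10.2 CPM and Cd79a at 9.30 and 9.82 CPM. Of 14 B cell genes in the table, 10 were under 10 CPM in both libraries. Genes of granulocyte precursors were spread over a similar range, with Elane at 779 and 937 CPM, Fcnb at 252 and 211 CPM and Mmp8 at 348 and 298 CPM, beside Ly6g at 1.03 and 1.85 CPM.

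Several features with very short exons ranked among the highest per kb. Mir6236 (123 exon bases) had 6740 and 9733 RPKM, the processed pseudogene Gm10736 (78 bases) 7601 and 8610 and Gm23935 (57 bases) 5628 and 7032, all shorter than the 150-base reads. The 69 genes with under 150 exon bases held 5.56% and 6.60% of the summed level per kb but 0.218% and 0.270% of reads. Lars2, a mitochondrial leucyl-tRNA synthetase gene, held more reads than all genes but Actb, Lyz2, Tmsb4x and Gpx1. It had 5032 and 4952 CPM and stood at 454 and 447 RPKM. Whether all of these reads came from Lars2 transcripts was not tested.

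The Y-linked genes Eif2s3y (80.2 and 60.04 CPM) and Ddx3y (48.7 and 36.5 CPM) were present in both libraries.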
